A study of Mus musculus with 14 samples.

Results

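The genes described here are the 82 cytosolic ribosomal protein genes of the mouse, 50 of the large and 32 of the small subunit, out of 47729 identifiers measured. They were chosen by name alone: symbols of the form Rpl or Rps followed by a number and at most one letter (a, x or l), with Rplp0, Rplp1, Rplp2 and Rpsa. Names marked as pseudogenes were left out. The name rule does not reach some other genes that also encode ribosomal proteins, such as Fau, Rack1 and Rps3a1, which are given beside the members below.

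RNA was sequenced by a low-input method from microglia, the resident immune cells of the retina, sorted as CD11b+ Ly6c- Fcrls+ cells; the mice were wild type, of strain C57BL/6 and 12 weeks old. The 14 libraries fall into 4 groups: 3 from retinas injected with microbeads, which the labels call glaucoma, 3 from retinas contralateral to such an injection, 4 from sham-injected retinas and 4 from naive retinas with no treatment. Each library came from 100 to 600 cells of a single retina, brought to 100 to 300 cells in 5 µl of lysis buffer. The labels do not say whether retinas of a group came from separate mice, nor which contralateral retina belongs to which microbead retina, so p-values measure the spread between these samples, part of which may be technical.

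Ribosomal proteins are assembled with ribosomal RNA into the large subunit, which forms peptide bonds and holds the exit tunnel, and the small subunit, which reads the messenger RNA. Most of these proteins are needed in equal numbers. The messages for most of them carry a pyrimidine tract at the 5' end through which the mTOR pathway controls their translation. In microglia and other macrophages, raised expression of these genes has been described in activated states, and their short, abundant messages also make them sensitive to how a library recovers RNA of different length.

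Promoter windows of the members were taken from the RefSeq table of build GRCm38.p6, which spans 250 bases before to 50 bases after each annotated start. It held a window for 60 of the 82 members. The letters CCGGAAG, the core recognised by ETS family transcription factors, were searched on both strands, so that CTTCCGG counts as a match. They occurred in the windows of 25 of the 60 members (41.7%) and of 2683 of all 27025 genes with a window (9.93%). A run of at least 8 pyrimidines between 20 bases before and 30 bases after the annotated start was present in 33 of the 60 members (55%) and in 21.5% of all genes. TATAAA was present in 10% of the members and 15.7% of all genes, CACGTG in 10% and 8.09%, and CCAAT in 31.7% and 41.1%, all on both strands.

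The windows below belong to Rpl41, Rpl23 and Rpsa, members that passed the test in the comparison of microbead with naive libraries. No window is printed for the other members that passed. The last window belongs to Rps2, the member with the lowest fold change in that comparison. Each is printed 5' to 3' from 250 bases before to 30 bases after the annotated start, with CCGGAAG or CTTCCGG in capitals.
Rpl41, GRCm38.p6 chr10:128549139-128549418, minus strand: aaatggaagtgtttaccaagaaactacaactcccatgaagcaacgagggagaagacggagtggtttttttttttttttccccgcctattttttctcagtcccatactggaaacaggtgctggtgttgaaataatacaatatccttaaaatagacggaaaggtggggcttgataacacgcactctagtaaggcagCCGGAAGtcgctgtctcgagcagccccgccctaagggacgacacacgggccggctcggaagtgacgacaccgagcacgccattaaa
Rpl23, GRCm38.p6 chr11:97782410-97782689, minus strand: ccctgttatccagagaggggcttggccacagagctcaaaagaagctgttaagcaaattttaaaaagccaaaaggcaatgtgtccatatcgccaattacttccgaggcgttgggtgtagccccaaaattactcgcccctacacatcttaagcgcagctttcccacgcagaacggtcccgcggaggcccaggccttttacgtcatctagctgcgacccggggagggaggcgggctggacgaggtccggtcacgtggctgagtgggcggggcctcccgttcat
Rpsa, GRCm38.p6 chr9:120127516-120127795, plus strand: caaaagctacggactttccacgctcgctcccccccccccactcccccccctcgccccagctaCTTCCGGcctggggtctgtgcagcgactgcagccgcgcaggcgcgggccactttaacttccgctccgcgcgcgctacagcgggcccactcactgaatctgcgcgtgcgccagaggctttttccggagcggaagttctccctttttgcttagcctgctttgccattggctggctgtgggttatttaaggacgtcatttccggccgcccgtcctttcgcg
Rps2, GRCm38.p6 chr17:24719813-24720092, plus strand: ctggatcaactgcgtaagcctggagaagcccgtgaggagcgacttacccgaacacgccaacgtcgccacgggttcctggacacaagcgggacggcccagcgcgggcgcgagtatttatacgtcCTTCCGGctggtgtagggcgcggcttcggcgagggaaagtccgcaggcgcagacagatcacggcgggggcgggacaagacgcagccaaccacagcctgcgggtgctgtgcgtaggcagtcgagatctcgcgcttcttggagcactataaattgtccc
Rpl41, Rpsa and Rps2 each hold 1 match, while the window of Rpl23 holds 0. The motif was thus present in members at both ends of the response, and the median log2 fold change between microbead and naive libraries was 1.51 for the 25 members with it and 1.27 for the 33 tested members with a window that lacks it.

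The shallowest library was microbead 1, with 1340512 reads assigned to genes, while the other 13 libraries held 6027779 to 13995779. Of the 82 members, 80 passed the filter on low counts and were among the 14279 genes tested. Rpl39l and Rpl6l passed that filter with few reads, and Rpl39l had reads in 5 libraries only. All 9 microglia markers on the list used, 1 of which (Itgam) has a pair of identifiers that were both summed, were detected in each group, with summed levels of 13493 to 27633 CPM (reads per gene scaled to a common library size by the TMM method) in the microbead, 21709 to 33296 in the contralateral, 28346 to 31979 in the sham and 19127 to 29751 in the naive libraries. The 10 monocyte markers summed to 76.8 to 182 CPM in the microbead and 2.17 to 35.0 CPM in the naive libraries, with 3.86 to 102 in the sham and 2.68 to 151 in the contralateral libraries, and Ly6c2, Chil3, S100a8 and S100a9 had no read in any group. The 12 rod photoreceptor markers were present in every group, at 516 to 4425 CPM in the microbead and 278 to 3430 CPM in the naive libraries. They summed to 2291 to 3910 CPM in the contralateral and 860 to 1674 in the sham libraries, which did not overlap. The microbead and naive ranges overlapped each other and those of both other groups. The 5 border macrophage markers summed to 0 to 16 CPM in the microbead libraries, with Cd163, Cbr2 and Lyve1 at 0, to 19.6 to 99.0 in the naive, 15.6 to 144 in the sham and 13.4 to 194 in the contralateral libraries. The part of these markers in the results below was not tested.

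Reads in the 82 genes made up 6.13, 3.23 and 2.68% of the 3 microbead libraries. They made up 2.32, 1.92 and 1.45% of the contralateral libraries, 1.78, 1.76, 2.05 and 1.72% of the sham libraries and 2.05, 1.62, 1.54 and 2.08% of the naive libraries. Every microbead library lay above all 11 others, and the other 3 groups overlapped. Mitochondrial reads made up 1.48 to 2.12% of the microbead, 0.871 to 1.16% of the naive, 1.00 to 1.51% of the sham and 0.164 to 0.786% of the contralateral libraries, and their part in the difference was not tested. The mean share was 4.01 ± 1.86% (SD, n = 3) in the microbead group, 1.90 ± 0.436% (SD, n = 3) in the contralateral, 1.83 ± 0.151% (SD, n = 4) in the sham and 1.82 ± 0.282% (SD, n = 4) in the naive group. The highest share belonged to the shallowest library, and the part of depth in it was not tested. In sorted bulk samples, a different number of cells and a different amount of RNA per cell cannot be told apart, and these values are shares of a library, not amounts per cell.

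**Figure D1:**
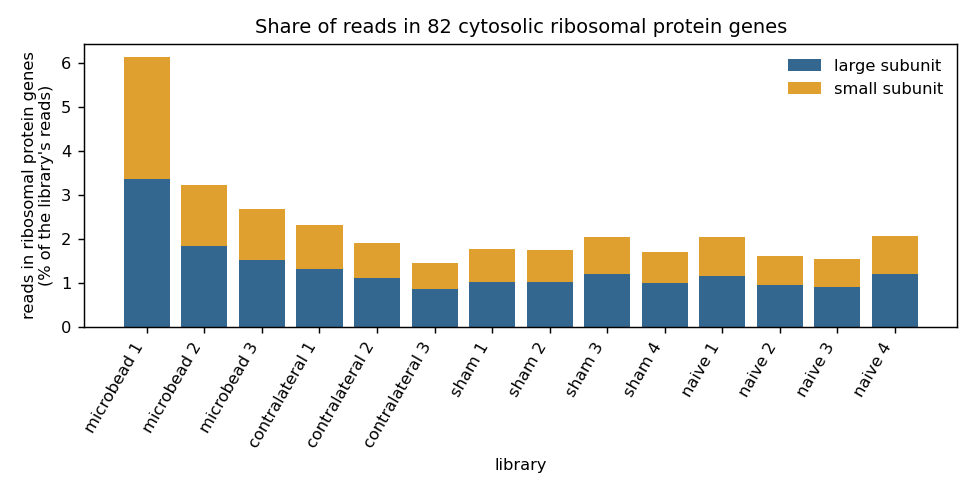
Percent of each library's reads in the 82 ribosomal protein genes, stacked by subunit, for the 14 libraries. The 3 microbead libraries stand at 2.68 to 6.13%, above the 1.45 to 2.32% of the other 11.

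Both subunits contributed. Large subunit genes took 1.30 ± 0.0654 (SD, n = 3) reads per small subunit read in the microbead, 1.40 ± 0.0757 (SD, n = 3) in the contralateral, 1.40 ± 0.0233 (SD, n = 4) in the sham and 1.39 ± 0.0449 (SD, n = 4) in the naive group. Microbead 1 had the lowest ratio of the 14 libraries, at 1.22, whereas microbead 2 and 3, at 1.34 and 1.33, lay within the range of the naive libraries, 1.33 to 1.42.

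Per base of transcript (FPKM, the deposited unit that corrects for length), the members differed widely in level. Rplp1, an acidic protein of the stalk that recruits elongation factors, had the highest mean over the 14 libraries, 2890 FPKM. It was followed by Rps29 at 2795, Rps27 at 1974, Rpl41 at 1970, Rpl10 at 1553, Rps28 at 1545 and Rps4x at 1463 FPKM. In the naive group alone, Rplp1 stood at 2393 ± 482 FPKM (SD, n = 4) and Rps29 at 1919 ± 390 FPKM (SD, n = 4). Their spreads overlapped. The order below them changed there, with means of 1423 for Rpl10, 1414 for Rps27, 1273 for Rps4x, 1229 for Rpl41 and 918 for Rps28. The means over the 14 libraries include microbead 1, which had 8677 FPKM for Rpl41 and 7488 for Rps28. At the other end, Rpl35 averaged 67.3 and Rpl5 95.5 FPKM. 4 genes annotated as close relatives of other members were low: Rps4l averaged 75.2 FPKM, Rpl39l 6.21 and Rpl6l 4.15, and Rpl10l had 138 reads in 1 library, microbead 3. Rpl3l, the heart and muscle relative of Rpl3, had no read in any library.

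Against sham retinas, 80 of the 80 tested members had a log2 fold change above 0, which held for 45.7% of all genes, with a median of 1.53, while the median over all 14279 genes was -0.12. None passed an adjusted p of 0.05 (edgeR quasi-likelihood test, Benjamini-Hochberg over all genes); the lowest adjusted p among members was 0.0664. Over all genes, 2 were called higher, 0.014%. At an unadjusted p of 0.05, 77 members were higher, against 4.48% of all genes tested. In 72 of the 80, the lowest microbead value exceeded the highest sham value, which held for 5.11% of all genes. With the DESeq2 Wald test, 62 members had an adjusted p below 0.05, against 3.27% of the 13841 genes with a value.

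Against naive retinas, 79 of 80 members had a log2 fold change above 0, which held for 45% of all genes, with a median of 1.46, while the median over all genes was -0.14. 6 members rose past an adjusted p of 0.05, among them Rpl17, Rpl41, Rpl30, Rpl23 and Rpsa. The 6 were among 27 genes called higher, 0.189% of those tested. At an unadjusted p of 0.05, 75 members were higher, against 4.72% of all genes. The groups did not overlap for 71 members, against 4.85% of all genes. With the DESeq2 Wald test, 61 members had an adjusted p below 0.05, against 4.02% of 13841 genes. The comparisons of microbead retinas with sham and with naive retinas share the 3 microbead libraries and are not independent of each other.

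By subunit, the median log2 fold change against naive was 1.40 for the 48 tested large subunit genes, of which 4 were called, and 1.49 for the 32 small subunit genes, of which 2 were called. Against sham the medians were 1.50 and 1.56, with 0 called in either.

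Rpl41 (chromosome 10, 128548114 to 128549305, minus strand in GRCm38) encodes a very short basic peptide at the interface of the subunits. It was measured at 2213, 943 and 521 CPM in the microbead libraries, 440, 225 and 180 in the contralateral, 253, 229, 308 and 242 in the sham and 329, 213, 183 and 285 in the naive libraries. The lowest microbead library lay above the highest of the others, contralateral 1, and the 3 remaining groups overlapped. Its log2 fold change was 2.28 (SE 0.40, adjusted p = 0.0281) against naive and 2.25 (SE 0.40, adjusted p = 0.0664) against sham.

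Rpl17, a protein that lines the exit tunnel, reached 669, 327 and 375 CPM in the microbead libraries, 214, 157 and 111 in the contralateral, 144, 169, 163 and 132 in the sham and 143, 129, 99.7 and 144 in the naive libraries. The microbead libraries again lay above all others. The log2 fold change against naive was 1.82 (SE 0.32, adjusted p = 0.0275), the lowest adjusted p among the members, and that against sham was 1.59 (SE 0.32, adjusted p = 0.0708). 7 pseudogenes named after Rpl17 held 29.2% of the reads assigned to it or to them, so the split between these loci is uncertain. With their reads added, the value against naive was 1.81 (adjusted p = 0.0233).

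Rpl30 (chromosome 15, 34440505 to 34443640, minus strand), an RNA-binding protein of the large subunit, was measured at 819, 316 and 226 CPM in the microbead libraries, 139, 165 and 97.4 in the contralateral, 134, 87.8, 175 and 125 in the sham and 109, 119, 90.3 and 132 in the naive libraries. The 3 microbead values were the highest of the 14. Its log2 fold change against naive was 2.01 (SE 0.39, adjusted p = 0.0426).

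Rpl23 (chromosome 11, 97777527 to 97782437, minus strand) sits at the face of the large subunit that the biogenesis factor Eif6 covers. Its levels were 916, 451 and 298 CPM in the microbead libraries, 109, 174 and 121 in the contralateral, 163, 163, 191 and 119 in the sham and 202, 150, 127 and 168 in the naive libraries, and no other library reached the lowest microbead value. The log2 fold change against naive was 1.78 (SE 0.35, adjusted p = 0.0426).

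Rpsa, the laminin receptor precursor that joins the small subunit, is the longest member with a deposited length of 1861 bases. Its levels were 1255, 1290 and 659 CPM in the microbead libraries, 610, 546 and 277 in the contralateral, 315, 440, 325 and 380 in the sham and 448, 297, 272 and 446 in the naive libraries. Microbead 1 and 2 were level with each other here, and microbead 3, the lowest of the 3, lay above contralateral 1 by a small margin. The log2 fold change against naive was 1.55 (SE 0.31, adjusted p = 0.0478). 9 pseudogenes hold 29.8% of the reads of this family.

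**Figure D2:**
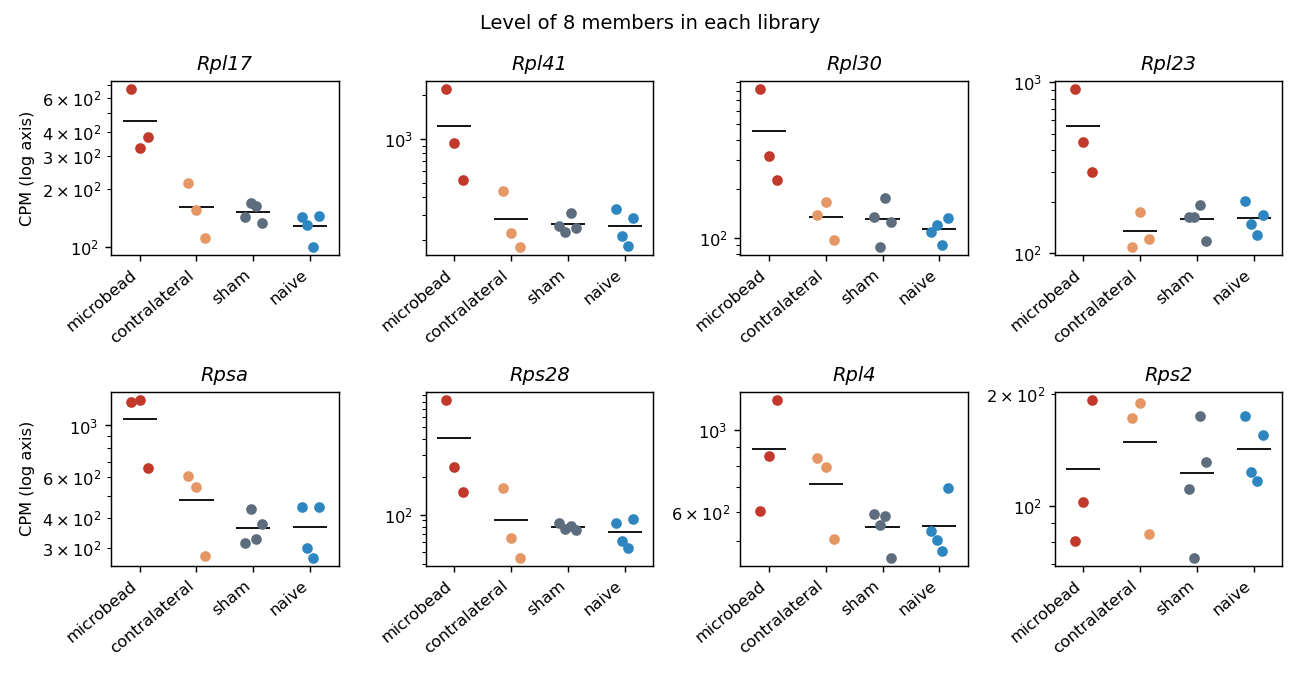
CPM (log axis) of 5 members called against naive retinas and of Rps28, Rpl4 and Rps2, with 1 point per library and a line at the group mean. In the first 5 panels the 3 microbead points lie above all others; in Rps28, Rpl4 and Rps2 they overlap at least one other group.

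Without microbead 1, the library with the fewest reads, the median of the 80 members fell to 1.07 against naive and 1.06 against sham, and 1 member, Rpl3, was called against naive in place of 6. None of those 6 passed. Rpl41 then had a log2 fold change against naive of 1.52 (adjusted p = 0.103) and Rpl17 of 1.42 (adjusted p = 0.0724). The number called against naive was 0 when any 1 of the 4 naive libraries, or sham 4, was left out. It was 2 (Rpl17 and Rpl41) without sham 1, 2 or 3. Over all genes, 13 were called higher without microbead 1, and 1, 0, 5 and 1 without naive 1, 2, 3 and 4. Without sham 1, 2, 3 and 4 the numbers over all genes were 12, 11, 14 and 6. Among members, 11 were called without microbead 2, 40 without microbead 3, and 33, 16 and 22 without contralateral 1, 2 and 3. Over all 15211 to 15522 genes tested in those fits, 41, 105, 83, 51 and 60 were called higher. Against sham, where none was called, leaving out microbead 2 or 3 gave 4 and 34, and leaving out contralateral 1, 2 or 3 gave 24, 6 and 20. Over all genes in the same fits, 14, 80, 51, 18 and 46 were called higher. Rpl3 is named here after its value was seen.

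Each library can be read on its own against the mean of the naive libraries. The median log2 level of the 80 members relative to that mean was 1.98, 1.25 and 0.97 in microbead 1, 2 and 3. It was 0.63, 0.26 and -0.46 in the contralateral libraries, -0.14 to 0.21 in the sham and -0.34 to 0.28 in the naive libraries. The medians of the large and the small subunit lay close together, at 2.02 and 1.98 in microbead 1, 1.22 and 1.30 in microbead 2 and 0.94 and 1.02 in microbead 3. Across the 14 libraries the log2 levels of the members moved together, with a median Pearson r of 0.83 over the 3160 pairs of members, a description that includes the difference between groups. The members least like the others were Rpl6l, Rps2, Rpl39l and Rps4l, with a mean r of -0.03, 0.03, 0.22 and 0.23.

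**Figure D3:**
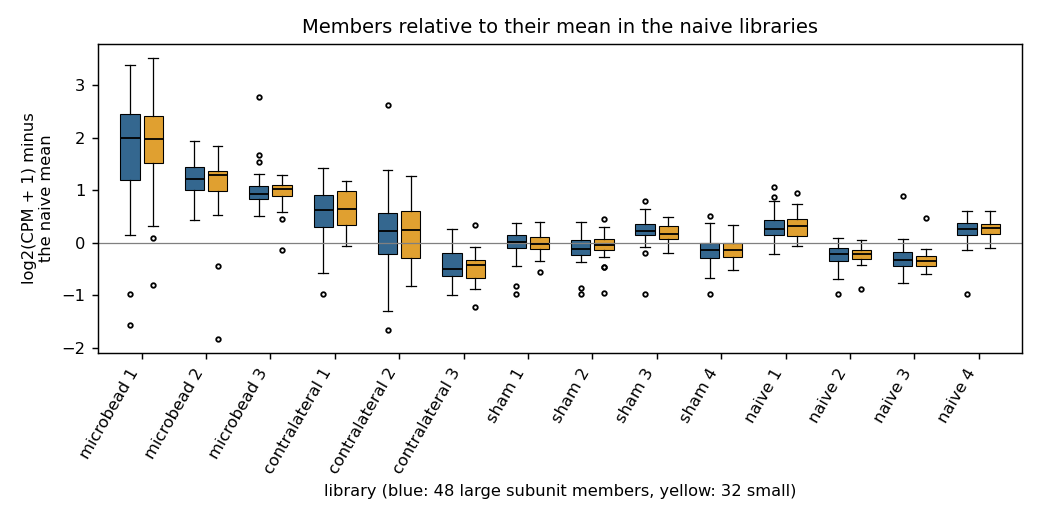
For each library, boxes show log2(CPM + 1) minus its mean in the 4 naive libraries for the 48 large (blue) and 32 small (yellow) subunit members tested; boxes span the quartiles with the median line, whiskers reach 1.5 times the quartile range. The microbead libraries are shifted upward in both subunits, most in microbead 1, and the contralateral libraries spread on both sides of 0.

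The largest log2 fold changes against naive belonged to Rps28, Rpl39, Rpl41 and Rpl36a. Rps28, a small protein near the exit of the messenger RNA channel, was measured at 828, 241 and 153 CPM in the microbead libraries, 162, 64.8 and 45.3 in the contralateral, 85, 76.3, 81 and 74.9 in the sham and 85.4, 61.1, 54.4 and 91.7 in the naive libraries. Microbead 1 stood far above the other 2 microbead libraries, and microbead 3 lay below contralateral 1. Its log2 fold change was 2.47 (SE 0.51, adjusted p = 0.0512) against naive. Rpl39, a peptide of the exit tunnel, was measured at 290, 83.8 and 53.1 CPM in the microbead libraries and 32.1, 23.8, 21.2 and 32.6 in the naive libraries; the log2 fold change was 2.37 (SE 0.60, adjusted p = 0.0978). The groups do not overlap, but 1 pseudogene named after it holds 74.8% of the reads of the pair. Rpl36a stood at 518, 148 and 122 CPM against 67.3, 47.5, 43.2 and 69 in the naive libraries; the log2 fold change was 2.21 (SE 0.48, adjusted p = 0.0646).

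Of the other members with the highest level per base, Rps15 stood at 1107, 603 and 466 CPM in the microbead and 274, 173, 173 and 250 in the naive libraries; the log2 fold change was 1.74 (SE 0.37, adjusted p = 0.0569). Rps29 had 2.11 (SE 0.44, adjusted p = 0.0534), Rpl32 1.82 (SE 0.38, adjusted p = 0.0573) and Rpl26 1.44 (SE 0.35, adjusted p = 0.0875). In each of these 4 every microbead library lay above every naive library. Rpl10, whose protein completes the peptidyl transferase centre late in assembly, had a smaller difference: it stood at 1153, 1083 and 1054 CPM in the microbead and 702, 694, 588 and 694 in the naive libraries, without overlap, with 0.71 (SE 0.23, adjusted p = 0.232). The 5 pseudogenes named after Rpl10 hold 28.1% of the reads of that family.

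The smallest changes were those of Rps2, Rps4l, Rpl29 and Rpl4. Rps2 (chromosome 17, 24718116 to 24721929, plus strand), a small subunit protein at the entry of the messenger RNA channel, was measured at 80.4, 103 and 194 CPM in the microbead libraries, 173, 190 and 84.4 in the contralateral, 111, 72.6, 175 and 131 in the sham and 175, 123, 117 and 155 in the naive libraries. The groups overlapped throughout, with the lowest microbead value in microbead 1. Its log2 fold change was -0.18 (SE 0.40, adjusted p = 0.954) against naive and 0.04 (SE 0.40, adjusted p = 0.995) against sham. The mean length assigned to its transcripts in the deposited tables also differed: it was 554, 782 and 972 bases in the 3 microbead libraries and 884 to 971 in the sham and naive libraries. Rpl29 stood at 136, 177 and 128 CPM against 108, 77.9, 61.4 and 123 in the naive libraries; the log2 fold change was 0.67 (SE 0.38, adjusted p = 0.552). Rpl4, a long member whose loop reaches into the exit tunnel, stood at 603, 854 and 1213 CPM in the microbead and 530, 501, 469 and 698 in the naive libraries. Its microbead 1 value lay inside the naive range, and its log2 fold change was 0.70 (SE 0.27, adjusted p = 0.375).

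The size of the difference followed transcript length. Among members of up to 500 bases (14 tested), the median log2 fold change against naive was 1.78. It was 1.35 for the 56 members of 501 to 1000 bases and 1.11 for the 10 of 1001 to 2000 bases. Across the 80 members, Spearman's rho between deposited length and log2 fold change was -0.55 against naive and -0.54 against sham, given as a description since all members share the same libraries. It was -0.50 for the large and -0.63 for the small subunit genes against naive. The 4 shortest members, Rps28, Rps27, Rpl38 and Rps29, had log2 fold changes of 2.47, 1.79, 1.54 and 2.11. The 4 longest, Rpsa, Rps3, Rpl5 and Rpl4, had 1.55, 1.02, 1.48 and 0.70.

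Among the members, the decline with length was steepest in microbead 1. Relative to the naive mean, its members of up to 500, 501 to 1000 and 1001 to 2000 bases stood at medians of 2.58, 1.87 and 1.22. Microbead 2 had 1.31, 1.24 and 1.18 in the same classes, and microbead 3 had 0.94, 0.97 and 1.00. Within a library, Spearman's rho of length with the relative level was -0.56 in microbead 1, -0.18 in microbead 2 and 0.01 in microbead 3. The other groups ranged from -0.20 to 0.45 in the contralateral, -0.05 to 0.33 in the sham and -0.29 to 0.19 in the naive libraries. The members of all 3 microbead libraries thus stood above the naive mean in each length class, and microbead 1 had the most negative rho of the 14. Genes that are not members had another order. Their median relative level at up to 1000 bases minus that at over 4000 bases was 0.50, 0.38 and 1.06 in microbead 1, 2 and 3. This difference ranged from -0.18 to 0.72 in the contralateral, -0.02 to 0.12 in the sham and -0.17 to 0.04 in the naive libraries.

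Other short genes were higher too, by less. Genes that are not members and have up to 500 bases (406 tested) had a median log2 fold change against naive of 0.78, those of 501 to 1000 bases (1596) of 0.39, those of 1001 to 2000 bases (4531) of -0.02 and those over 2000 bases (7666) of -0.33. Every microbead library lay above every naive library in 21.9% of the non-members of up to 500 bases and in 92.9% of the members of that length. For 501 to 1000 bases these shares were 13.2% and 89.3%, and for 1001 to 2000 bases 4.04% and 80%. The members are abundant, and among genes with a mean of at least 100 CPM the gap was narrower in every class, most so in the 2 shorter ones. There, non-members of up to 500 bases (13) had a median of 1.53 and members (11) of 1.79, and for 501 to 1000 bases the medians were 1.02 (116 genes) and 1.30 (48 members). For 1001 to 2000 bases they were 0.21 (483 genes) and 1.11 (10 members). At that level, every microbead library lay above every naive library in 84.6% of non-members and 100% of members of up to 500 bases. The shares were 59.5% and 93.8% for 501 to 1000 bases and 12.6% and 80% for 1001 to 2000 bases. For up to 500 bases at that level, the medians against sham were 1.68 in non-members and 1.76 in members. Against contralateral they were 1.49 and 1.60. There, every microbead library lay above every contralateral library in 61.5% of the non-members and 45.5% of the members.

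**Figure D4:**
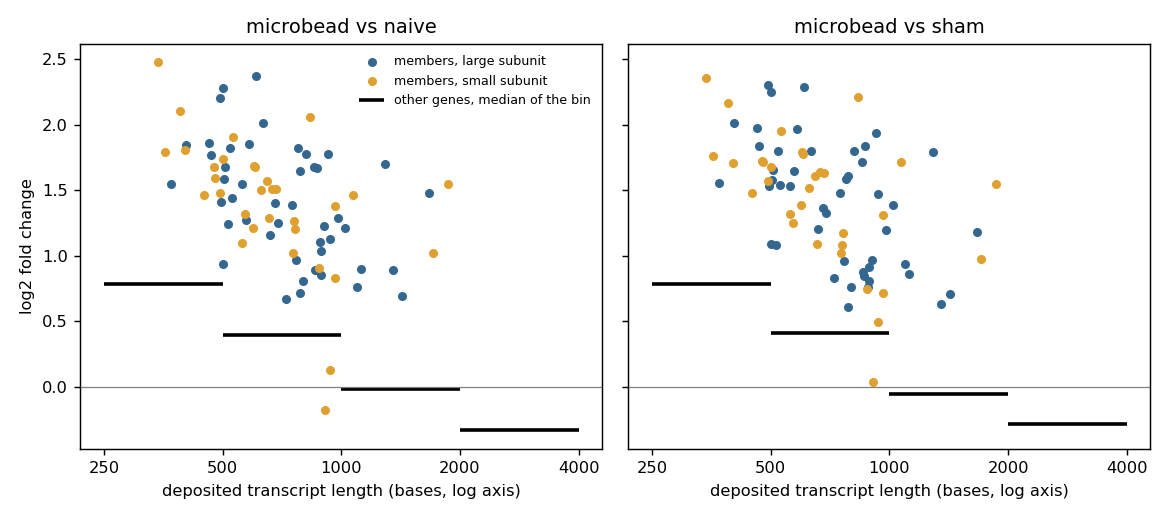
Log2 fold change against deposited transcript length (log axis) for 79 tested members, without Rpl39l, which had reads in 5 libraries only; black bars are medians of all other genes in each length class, the last of which is open above 2000 bases. Most members lie above the bar of their class, with Rps2 and Rps4l below it against naive, and both members and bars decline with length.

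With each library's trend of level against length removed, fitted over all genes of at least 10 CPM, the member median fell to 0.32 against naive and 0.25 against sham, while the median over all genes was -0.18 and -0.16. No member was then called in either comparison, and 66 and 65 of 80 had a log2 fold change above 0. The members are themselves a part of the short, abundant genes from which this trend was drawn. Of the 6 called members, 5 had 0.88 (Rpl17), 0.69 (Rpl41), 0.68 (Rpl30), 0.86 (Rpl23) and 1.66 (Rpsa). Rpsa was the largest of all members in that fit, with Rpl5 next at 1.58, so the order of the members changed: Rps28, the first without the correction, had 0.27, and Rps27 had -0.26. With the correction and without both libraries that stood apart in number of genes detected, microbead 1 and contralateral 2, a combination chosen after seeing the data, the member medians were 0.50 against naive and 0.44 against sham.

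**Figure D5:**
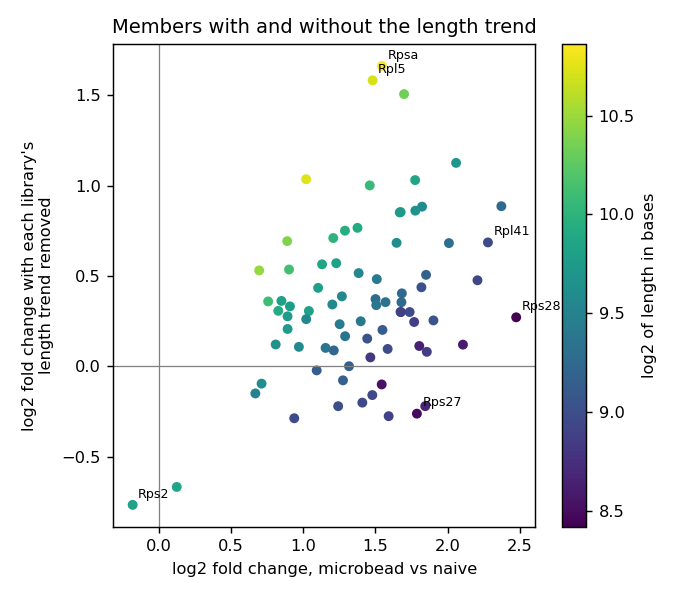
Log2 fold change of 79 members (without Rpl39l) between microbead and naive libraries, with no correction (horizontal) and with each library's length trend removed (vertical); colour gives the log2 of length. Most points stay above 0 on both axes, and the longest members move to the top.

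Against the contralateral retinas, the median log2 fold change of the members was 1.29, 77 of 80 lay above 0, as did 46.9% of all genes, and none was called, while 3 genes were called higher over all genes, 0.021%. At an unadjusted p of 0.05, 64 members were higher, against 4.89% of all genes. Leaving out microbead 3 gave 24 called members, among 76 genes called higher over all genes, and leaving out microbead 2 or contralateral 1 gave 3 each, among 19 and 9. The DESeq2 Wald test called 48 members, against 4.78% of 13841 genes. The groups did not overlap for 48 members, against 5.2% of all genes. Spearman's rho of log2 fold change with length was -0.55, as a description over the 80 members. The 3 members below 0 were Rps2 at -0.24, Rpl8 at -0.16 and Rps4l at -0.02. Rpl8, which encodes a core protein close to the peptidyl transferase centre, stood at 335, 616 and 601 CPM in the microbead libraries, 740, 716 and 274 in the contralateral, 256, 319, 321 and 258 in the sham and 316, 205, 264 and 331 in the naive libraries. The microbead range lay inside that of the contralateral libraries, and its log2 fold change between these groups was -0.16 (SE 0.35, adjusted p = 0.916).

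Between contralateral and naive retinas, the median log2 fold change of the 80 members was 0.18 and none was called, as over all genes (0 called, 0%). 5 members were higher at an unadjusted p of 0.05, against 2.9% of all genes. Rpl8 was the first of them, at 1.05 (SE 0.33, adjusted p = 0.949). Against sham, the median was also 0.18, with 0 called and 5 at an unadjusted p of 0.05, against 2.79% of all genes. The 3 contralateral libraries were spread more widely than those of any control group, with shares of 1.45 to 2.32%. Sham and naive retinas had a median difference of -0.01, with 0 called. At an unadjusted p of 0.05, 1 member was lower, Rpl39l, and 1.35% of all genes. DESeq2 called no member in these 3 comparisons.

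The stalk genes had values that differed in size, and the difference between them was not tested. Rplp0, the base of the stalk and the longest of its genes, had a log2 fold change against naive of 0.90 (SE 0.30, adjusted p = 0.263). Rplp1 had 1.41 (SE 0.39, adjusted p = 0.139) and Rplp2 1.86 (SE 0.46, adjusted p = 0.094). All 3 had microbead libraries above every naive library, and none was called. Rplp0 stood at 893, 1473 and 1135 CPM in the microbead libraries, 1284, 1456 and 576 in the contralateral, 579, 588, 808 and 595 in the sham and 583, 558, 507 and 850 in the naive libraries, so that 2 contralateral libraries lay within the microbead range. Rplp1 stood at 2338, 835 and 712 CPM in the microbead and 613, 415, 335 and 585 in the naive libraries, with microbead 1 again far above the other 2.

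Rpl5 and Rpl11 bind the 5S ribosomal RNA and, outside the ribosome, the p53 regulator Mdm2. Rpl11 (chromosome 4, 136028265 to 136053428, minus strand) was measured at 394, 265 and 235 CPM in the microbead, 113, 98.6, 149 and 113 in the sham and 147, 89, 121 and 142 in the naive libraries. Its log2 fold change against naive was 1.25 (SE 0.33, adjusted p = 0.119). Rpl5 (chromosome 5, 107900502 to 107909005, plus strand) stood at 414, 139 and 117 CPM against 83.5, 89, 137 and 84.6 in the sham and 113, 63.9, 69.9 and 72.3 in the naive libraries. Microbead 3 overlapped the sham libraries, and the log2 fold change against naive was 1.48 (SE 0.43, adjusted p = 0.173).

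Rps27a and Fau encode ribosomal proteins fused to ubiquitin or a ubiquitin-like protein, and of the pair only Rps27a falls under the name rule. Rps27a stood at 1059, 423 and 483 CPM in the microbead and 263, 185, 163 and 310 in the naive libraries; the log2 fold change was 1.51 (SE 0.35, adjusted p = 0.0819). Fau stood at 975, 624 and 368 CPM against 266, 146, 131 and 290. Its log2 fold change against naive was 1.65, and neither gene had a microbead value within its naive range. Of the 8 tested ribosomal protein genes outside the rule, 7 had an unadjusted p below 0.05 and were higher, against 4.72% of all genes. The median was 1.34 and 0 of the 8 were called. Of these, Rps3a1 stood at 496, 1001 and 1020 CPM in the microbead and 401, 379, 391 and 472 in the naive libraries, with 1.03 (SE 0.30, adjusted p = 0.171). Rack1 stood at 478, 1034 and 821 CPM against 401, 334, 406 and 511, with microbead 1 inside the naive range and 0.91 (SE 0.30, adjusted p = 0.253). One of the 8, Rpl10-ps3, is named as a pseudogene. Rpl7l1, a relative of Rpl7 of 2606 bases, was the exception at -0.70 (adjusted p = 0.716), while Rpl7 itself had 0.76 (SE 0.26, adjusted p = 0.299).

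Of 9 proteins around the mouth of the exit tunnel, where nascent chains meet chaperones, 9 had microbead libraries above all naive ones. This held for 71 of the 80 members tested and 4.85% of all genes. The median of the 9 was 1.55 and Rpl17 was called. The 19 members whose human counterparts are mutated in Diamond-Blackfan anaemia, an inherited failure of red cell production, had a median of 1.47, with 0 called. All 19 were higher at an unadjusted p of 0.05, as were 75 of the 80 members and 4.72% of all genes. Both medians are close to the 1.46 of all members.

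Close relatives among the members differed in level and in the size of the difference. Rps4x stood at 1003, 1669 and 1640 CPM in the microbead and 862, 760, 663 and 954 in the naive libraries; the log2 fold change was 0.83 (SE 0.27, adjusted p = 0.259). Rps4l stood at 115, 11.8 and 40.5 CPM against 87, 23.8, 30.9 and 61, with overlapping groups and 0.13 (SE 0.72, adjusted p = 0.981). Rps27l, a relative of Rps27 induced by p53, stood at 128, 29.8 and 30.8 CPM against 20.7, 14.8, 28.4 and 18.9, with 1.59 (SE 0.67, adjusted p = 0.426). Rps27 itself stood at 862, 255 and 241 CPM against 164, 133, 92.1 and 136, with 1.79 (SE 0.44, adjusted p = 0.0936). Rpl22 had 1.24 (SE 0.42, adjusted p = 0.289) and its relative Rpl22l1, outside the rule, 1.80 (SE 0.54, adjusted p = 0.194). Rpl3 stood at 803, 1323 and 1417 CPM in the microbead and 540, 628, 556 and 826 in the naive libraries, where microbead 1 lay below the highest naive value.

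Genes that build ribosomes were split in direction. Of 48 tested ribosome biogenesis factors, 22 had a log2 fold change above 0 against naive, the median was -0.07 and 0 were called. At an unadjusted p of 0.05, 2 were higher and 3 lower, while 4.72% of all genes were higher. In either direction, 1504 of all 14279 genes were below that p, 674 of them higher. The lowest p-values belonged to Polr1a, the largest subunit of RNA polymerase I, at -1.92 (SE 0.51, adjusted p = 0.121), to Efl1, a GTPase that releases Eif6, at -2.45 (SE 0.75, adjusted p = 0.209), and to nucleolin, Ncl, at 0.97 (SE 0.31, adjusted p = 0.242). Their deposited lengths of 3913, 2176 and 3378 bases exceed that of every member.

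Of 43 translation factors, 30 had a log2 fold change above 0 against naive, with a median of 0.42 and 0 called. 9 were higher and 2 lower at an unadjusted p of 0.05, while 4.72% of all genes were higher. The lowest p-values were those of Tpt1, at 1.18 (SE 0.27, adjusted p = 0.0808), Eif3h, at 1.42 (SE 0.35, adjusted p = 0.0931), and the poly(A)-binding protein gene Pabpc1, at 1.53 (SE 0.38, adjusted p = 0.0975). Among 27 regulators of translation, the median was -0.07, with 0 called and 2 at an unadjusted p of 0.05 in each direction. Over all 14279 genes, 1504 were below that p in either direction, 674 of them higher. Rptor, the mTOR complex subunit that binds its substrates, had -1.28 (SE 0.30, adjusted p = 0.0819). Eif4ebp1, the repressor that mTOR inactivates, had 1.55 (SE 0.50, adjusted p = 0.253), and the double-stranded RNA-activated kinase gene Eif2ak2 had 1.04 (SE 0.46, adjusted p = 0.447).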

How the data were processed

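Per the file headers, the authors' deposited per-library tables hold an expected count (reads estimated per gene), a length, an effective length and FPKM for 47729 identifiers. Each expected count was rounded to a whole number here. FPKM, the deposited value per base of transcript and per library size, was used to compare levels between genes, and the authors' series-wide table holds the same FPKM. The program that produced them was not given in the sources used here. The submitters' processing notes list Salmon 1.4.0, R 4.0.3 and DESeq2 1.30.1 and the build mm10, with no role. Of the 82 members, 51 identifiers matched GENCODE M21 (GRCm38) with their version, and coordinates are given for these only. No 2 libraries held identical counts.

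All 14 libraries entered one edgeR 4.0.16 quasi-likelihood fit (R 4.3.3) with TMM scaling, filterByExpr at a minimum count of 10, one mean per group, and 2-sided tests adjusted by Benjamini-Hochberg over 14279 genes at 0.05. CPM values are scaled by TMM, and log2 CPM used a prior count of 2. The fit was tested on simulated data. Per-library medians are differences of log2 CPM from the naive mean. Alternatives were DESeq2 1.42.0, limma 3.58.1 (voom with quality weights; log2(FPKM + 1), pseudocount 1), other filters and scaling, pseudogene reads added, the compared groups alone, single libraries left out, a replicate block and a length trend (lowess, span 0.5) removed. The 272 pseudogenes named after members are near-identical copies, so the assignment of reads between them and the members is uncertain.

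Named members are those called in a comparison of microbead with sham or naive libraries, the 6 of highest mean FPKM in each subunit, the 4 largest and 4 smallest fold changes against naive, the 4 longest and 4 shortest, small structural lists and close relatives. Of the other lists, the 3 genes with the lowest p against naive are named. Rpl8 and Rpl7l1 were singled out after their values were seen. The members, the lists and the tests were chosen with earlier results of these data known. Values of some genes are not reported here.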

Additional observations from a re-analysis of the deposited data

Results flagged for a closer look

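In the groups of 4, 102 sets of values were examined for 1 library far from the other 3 (a gap to the nearest value, relative to the range, above Dixon's 95% critical value), and 5 were found, where chance gives about 1 in 20. Sham 1 was low for Rpl7, at 247 CPM, where the other sham libraries stood at 431 to 449. Sham 3 was high for Rpl5, at 137 CPM against 83.5 to 89.0, and for Rplp0, at 808 CPM against 579 to 595. Naive 3 was low for Rpl10, at 588 CPM against 694 to 702. Naive 4 was high for the translation factor Tpt1, at 536 CPM against 431 to 442. The groups of 3 were not examined this way, which leaves microbead 1 untested by this measure.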

How the results depend on the processing

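Both the number of members called and their median depended on the processing. Called members against sham, 0 in the report, numbered 29 with no filter, 62 with DESeq2 and 26 with limma voom, and 0 to 34 when single libraries were left out, where 97, 258, 85 and 0 to 80 were called higher over all genes. Against naive, 6 in the report, they numbered 14 with DESeq2 size factors, 13 with TMM computed without the members, 28 with no filter, 12 with at least 50 reads, 61 with DESeq2, 54 with limma voom, 1 with limma on log2(FPKM + 1), 0 with the compared groups alone, 2 without microbead 1 and contralateral 2, 0 with the length trend removed (also without those libraries), 12 without identifiers absent from the series-wide table, 13 with pseudogene reads added and 0 to 40 with single libraries left out. Over all genes, in the same order, 43, 41, 125, 37, 313, 176, 17, 5, 30, 4 (11), 40, 38 and 0 to 105 were called higher. Against contralateral, 0 in the report, they numbered 18 with no filter, 48 with DESeq2, 13 with limma on FPKM and 0 to 24 with single libraries left out, where 97, 328, 63 and 0 to 76 were called higher over all genes. Every member called under any of these settings was higher in microbead libraries.

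The member median moved by more than the spread between libraries (0.42) with the length trend removed, to 0.25 against sham, 0.32 against naive and 0.43 against contralateral. Without microbead 1 and contralateral 2 it was 1.06 against sham, and with both changes, chosen after seeing the data, 0.44, 0.50 and 0.47. Leaving out single libraries gave 1.06 to 1.71 against sham, 1.07 to 1.64 against naive and 0.95 to 1.68 against contralateral. Those 3 medians stayed above 0 in every setting run. The medians of contralateral against naive (0.18) and sham (0.18) and of sham against naive (-0.01) ranged from -0.15 to 0.40, -0.18 to 0.44 and -0.11 to 0.09 with single libraries left out, and 0 members were called in them. With the length trend removed these 3 medians were -0.13, -0.14 and 0.01. Of the 80 members, 27, 24 and 44 then lay above 0, where 65, 64 and 37 did so without that change. The cause of these differences was not tested.

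With the replicate number as a replicate block, 0 members were called against naive, and the medians were 1.42 against naive and 1.42 against sham. Whether the numbers pair the libraries cannot be decided here, because the groups are small and the labels state no pairing. Over 19 same-numbered pairs the correlation of deviations ran from -0.05 to 0.11, and 1 pair exceeded 0.1. Over the members alone, it was 0.39, 0.32 and -0.48 between same-numbered microbead and contralateral libraries, in order of number. For 7 libraries the best match in another group had their number, and the value for chance was not computed.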
